A study of Mus musculus with 16 samples.

Results

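Small nucleolar RNAs (snoRNAs) were examined in 16 bulk RNA-seq libraries of CD11b+ cells from MC38-Ova tumours. They were taken as every gene of the count tables whose symbol starts with Snord, the C/D box class, or Snora, the H/ACA box class, which gave 110 genes (74 Snord and 36 Snora) of 24421. MC38-Ova is a murine colon adenocarcinoma line that carries ovalbumin, grown here under the skin of adult C57BL/6 mice that carry the Kaede transgene, all labelled as controls for treatment. The tumour was illuminated with violet light, which turns the Kaede protein in the host cells within it from green to red. Kaede-red cells had therefore been in the tumour since photoconversion, and Kaede-green cells had entered later. Viable cells that carried CD11b, CD45 and Kaede, but neither NK1.1 nor TER119, were sorted 24h or 72h afterwards, with 4 libraries each of Kaede-green 24h, Kaede-red 24h, Kaede-green 72h and Kaede-red 72h, all labelled as 1 batch. Illumination reached the tumour only, so colour records residence and not origin, and a Kaede-red cell at 72h had been resident for at least that long. Per the study's supplement the libraries of a group are tumours of separate mice, while whether a Kaede-green and a Kaede-red library shared a tumour is not given in the sources used here.

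snoRNAs are short nucleolar RNAs that guide the chemical modification of other RNAs, chiefly ribosomal RNA. A C/D box snoRNA pairs with its target and positions the methyltransferase fibrillarin for 2'-O-methylation, whereas an H/ACA box snoRNA forms hairpins that hold the target for the pseudouridine synthase dyskerin. In mammals most are not transcribed on their own but are cut from introns of a host gene, often one for a ribosomal protein or a translation factor, after splicing. A few are needed to cleave the ribosomal RNA precursor rather than to modify it.

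The sequences below are GENCODE transcripts of the mouse GRCm38 (mm10) build and are shown because the results turn on these genes. For the Snord genes, capitals mark the C box letters TGATGA where they occur in the first 25 bases and the D box letters CTGA where they occur in the last 15 bases, and for the Snora genes they mark ACA in the last 8 bases. The first 5 are C/D box genes with high counts or large differences, the next 4 are 2 pairs that each lie in 1 host gene, and the last 3 are H/ACA box genes.
Snord17: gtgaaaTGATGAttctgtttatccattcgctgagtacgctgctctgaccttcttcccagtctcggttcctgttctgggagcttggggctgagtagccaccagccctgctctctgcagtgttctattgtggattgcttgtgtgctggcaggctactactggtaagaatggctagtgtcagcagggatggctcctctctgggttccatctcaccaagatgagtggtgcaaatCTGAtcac
Snord22: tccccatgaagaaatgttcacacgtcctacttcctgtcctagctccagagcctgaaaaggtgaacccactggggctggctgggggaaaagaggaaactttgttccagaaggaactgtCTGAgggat
Snord82: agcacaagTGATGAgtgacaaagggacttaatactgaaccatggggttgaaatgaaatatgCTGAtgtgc
Snord57: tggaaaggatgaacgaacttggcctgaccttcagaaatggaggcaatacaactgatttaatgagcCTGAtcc
Snord65: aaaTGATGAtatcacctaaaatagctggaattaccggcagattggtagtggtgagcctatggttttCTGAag
Snord15a: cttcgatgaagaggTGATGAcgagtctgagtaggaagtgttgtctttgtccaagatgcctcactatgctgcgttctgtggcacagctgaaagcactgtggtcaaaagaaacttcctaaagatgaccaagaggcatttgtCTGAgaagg
Snord15b: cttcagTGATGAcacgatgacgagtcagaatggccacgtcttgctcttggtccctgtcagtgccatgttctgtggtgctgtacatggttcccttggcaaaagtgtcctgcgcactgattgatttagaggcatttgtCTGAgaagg
Snord33: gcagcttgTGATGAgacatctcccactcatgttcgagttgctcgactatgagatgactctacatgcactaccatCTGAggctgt
Snord34: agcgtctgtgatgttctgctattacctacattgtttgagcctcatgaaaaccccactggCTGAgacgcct
Snora81: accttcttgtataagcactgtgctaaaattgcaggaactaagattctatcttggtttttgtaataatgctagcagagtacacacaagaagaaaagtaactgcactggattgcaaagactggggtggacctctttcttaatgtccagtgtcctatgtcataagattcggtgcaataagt
Snora7a: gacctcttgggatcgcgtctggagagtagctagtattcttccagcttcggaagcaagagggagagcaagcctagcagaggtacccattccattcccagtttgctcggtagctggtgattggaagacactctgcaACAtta
Snora26: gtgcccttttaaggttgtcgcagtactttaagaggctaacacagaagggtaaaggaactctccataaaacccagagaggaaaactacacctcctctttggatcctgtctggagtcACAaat

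Snord17 lies at chr2:144265979-144266216 on the minus strand, in an intron of the sorting nexin gene Snx5, and Snord22 at chr19:8725866-8725991 on the plus strand, where it overlaps an annotated exon of the noncoding gene Snhg1. Snord82 is at chr1:86356261-86356330 on the minus strand, in an intron of the nucleolin gene Ncl. Snord57, at chr2:130278016-130278087 on the plus strand, overlaps an annotated exon of Nop56, a gene for a core protein of C/D box particles. Snord65 is intronic to the noncoding gene 2410006H16Rik at chr11:62604515-62604586 on the plus strand. Snord15a (chr7:99482785-99482932) and Snord15b (chr7:99479563-99479707) lie on the minus strand within the ribosomal protein gene Rps3, in an intron and over an annotated exon, respectively. Snord33 (chr7:45126864-45126947) and Snord34 (chr7:45126601-45126670) lie on the minus strand within Rpl13a, over an annotated exon and in an intron, respectively. Snora81 is at chr16:23110756-23110933 on the plus strand in Eif4a2, Snora7a at chr6:115807975-115808114 on the minus strand in Rpl32 and Snora26 at chr5:74093530-74093650 on the plus strand in the noncoding gene Dancr, and each of these 3 overlaps an annotated exon of its host.

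TGATGA in the first 25 bases was found in 63% of the 73 Snord genes with a sequence and CTGA in the last 15 bases in 90.4%, both read on the gene's own strand, against 21.8% and 31.4% of the 1507 snoRNA genes of the annotation. ACA in the last 8 bases was found in 94.1% of the 34 Snora genes with a sequence, in 8.22% of the Snord genes and in 46.8% of all snoRNA genes of the annotation. Snord22, Snord57 and Snord34 lack TGATGA in that window and Snora81 lacks ACA in its own, which says only that these letters are not there. The Snord genes were 64 to 238 bases long (median 80) and the Snora genes 121 to 196 (median 132). Of the 110 genes, 107 matched 1 annotated gene by symbol. They lay in 77 host genes, 53 of them in introns of every annotated transcript of the host and 51 over an annotated exon, while 3 had no host on their strand.

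The libraries held 3216858 to 15423085 counts. Of these the ribosomal RNA gene Rn45s took 86.5 to 93.4% in Kaede-green and 66.2 to 84.9% in Kaede-red 24h libraries. At 72h it took 79.0 to 91.0% and 55.8 to 73.8%. snoRNA genes gave 1776 to 9872 counts per Kaede-green and 2348 to 10999 per Kaede-red library, and 70 to 99 of the 110 genes were detected in a library. Of the 110 genes, 60 (34 Snord and 26 Snora, with 96.9% of all snoRNA counts) passed the filter on low counts and were tested. A further 46 had counts but at most 149 in all libraries together, and 4 (Snord14c, Snord14d, Snord64 and Snord118) had none, which in 120682862 counts allows up to 0.0249 CPM, counting error only. Counts over the tested genes describe those 60, since a gene can pass the filter through the group in which it is high. Levels are given as CPM, counts scaled to a common library size, here adjusted by the trimmed mean of M-values (TMM), which places the typical gene at the same level in every library. They are not corrected for gene length, so levels are compared between libraries and not between genes. The defining genes of mononuclear phagocytes summed to 682 to 2224 CPM and those of T and NK cells to at most 5.72 CPM. Several lists differed with colour. On the TMM scale 5 of 8 mononuclear phagocyte genes rose in Kaede-red cells, among them Adgre1, and 1 (Lyz2) fell, while with library size alone all 8 rose. Neutrophil genes summed to 5.74 to 8.92 CPM in the Kaede-green and 7.26 to 11.0 CPM in the Kaede-red 24h libraries and to 8.41 to 11.4 and 15.8 to 18.2 CPM at 72h, and Csf3r, the 1 tested, rose. Endothelial genes summed to 10.04 to 16.4 and 17.8 to 22.5 CPM at 24h and to 9.77 to 19.2 and 21.9 to 36.7 CPM at 72h, where over both times Pecam1 and Kdr rose and Cdh5 fell, the last turning to 0.63 with library size alone. Fibroblast genes summed to 40.3 to 52.3 CPM in the Kaede-green and 19.7 to 37.4 CPM in the Kaede-red 24h libraries, and 45.5 to 49.9 and 11.9 to 19.2 CPM at 72h. Collagen genes Col1a1, Col1a2 and Col3a1, 3 of the 4 fibroblast genes tested, fell in Kaede-red cells, but 3 of the 4 rose with scaling to library size alone. The part of these cell types in the snoRNA results was not tested. The Rn45s share did not overlap between the colours at either time, so its part cannot be told apart from that of colour.

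snoRNA genes of both classes were lower in Kaede-red than in Kaede-green cells relative to the typical gene. In the 24h libraries the Snord genes together had 568, 541, 433 and 416 CPM in Kaede-green and 200.5, 161, 245 and 259 CPM in Kaede-red cells. The values at 72h were 634, 260.4, 446 and 929.9 CPM in Kaede-green and 98.9, 143, 225 and 66.7 CPM in Kaede-red cells. At each time all Kaede-red values were under all Kaede-green values, and the mean log2 difference over both times was -1.63, or 0.48 with scaling to library size alone.

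The Snora genes together had 422, 401, 321 and 317 CPM in the Kaede-green and 142, 144, 220.1 and 188 CPM in the Kaede-red 24h libraries. At 72h the values were 389, 348, 384 and 1638 CPM in Kaede-green and 78.2, 135, 129.9 and 56.7 CPM in Kaede-red cells. Colours did not overlap at either time, with a mean log2 difference of -1.80 over both times, or 0.31 with library size alone, but Kaede-green 72h replicate 4 stood far above the other 3 of its group. Results are therefore also given without it.

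**Figure D1:**
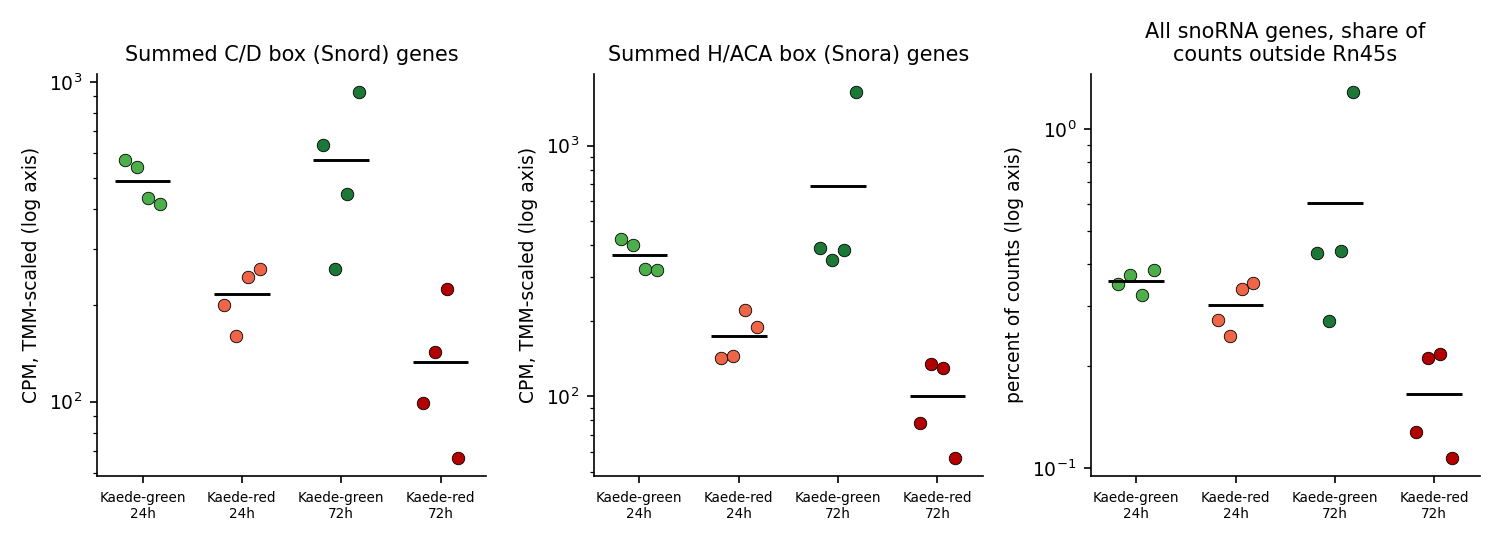
Summed level of Snord genes (left) and Snora genes (middle) in TMM-scaled CPM, and the share of counts outside Rn45s that fell in any snoRNA gene (right, percent), all on log axes. Each point is 1 library and each bar the mean of the 4 libraries of a group. In both CPM panels the Kaede-red points lie below the Kaede-green points of the same time, whereas the shares at 24h overlap. The highest point of each panel is Kaede-green 72h replicate 4, with 1638 CPM of Snora genes.

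This direction is relative. Scaled to library size alone, the median of all 9642 tested genes was 2.20 higher in Kaede-red cells (log2), and with the counts outside Rn45s as library size it was 0.82 higher. Measured against the median of all genes, the median of the tested snoRNA genes was -1.93 with TMM scaling, -1.93 with the size factors of DESeq2 and -2.14 with library size alone. It was -1.94 with Rn45s left out and -1.96 when the counts outside Rn45s served as library size. Those last fits were filtered anew and tested 8260 genes, so their snoRNA genes need not be the same 60. As a plain share of the counts outside Rn45s, snoRNA genes held 0.357% ± 0.0260 in Kaede-green and 0.302% ± 0.0510 in Kaede-red 24h libraries (SD, n = 4), and the groups overlapped. At 72h the shares were 0.608% ± 0.461 and 0.166% ± 0.0566 without overlap, and the Kaede-green mean was 0.380% ± 0.0937 without replicate 4 (SD, n = 3). As a share of all counts with Rn45s included, the order at 24h was the other way. There snoRNA genes held 0.0253 to 0.0501% in Kaede-green and 0.0532 to 0.0924% in Kaede-red libraries, without overlap. At 72h these shares overlapped, at 0.0245 to 0.270% and 0.0379 to 0.0713%. Bulk counts cannot tell fewer cells of a kind from less of an RNA per cell.

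Over both times, 53 of the 60 tested snoRNA genes fell in Kaede-red cells and none rose (edgeR's quasi-likelihood test, adjusted after Benjamini and Hochberg over all genes tested), where 10.3% of all genes tested fell and 10% rose. Scaled to library size alone, none fell and 7 rose, when 9328 of all 9642 genes were called with a median of 2.20. Of the Snora genes 25 of 26 fell, with a median log2 fold change of -1.88, and of the Snord genes 28 of 34 fell, with a median of -1.84, against 0.06 for all genes. All 60 values were below 0, from -2.86 (Snord67) to -0.13 (Snord15b). In 8 Snora and 6 Snord genes all 8 Kaede-red libraries lay below all 8 Kaede-green libraries, a pattern that 1.74% of all tested genes showed. Without Kaede-green 72h replicate 4, 49 of 61 tested snoRNA genes fell, when 1976 of all 10114 genes were called. The medians were then -1.35 for Snora and -1.68 for Snord genes. With the Rn45s share as a covariate 17 fell, namely 15 Snora and 2 Snord genes, when 156 of all 9642 genes were called, and the medians were -2.16 for Snora and -1.06 for Snord genes. Since that share did not overlap between the colours at either time, such a fit cannot tell it apart from colour.

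**Figure D2:**
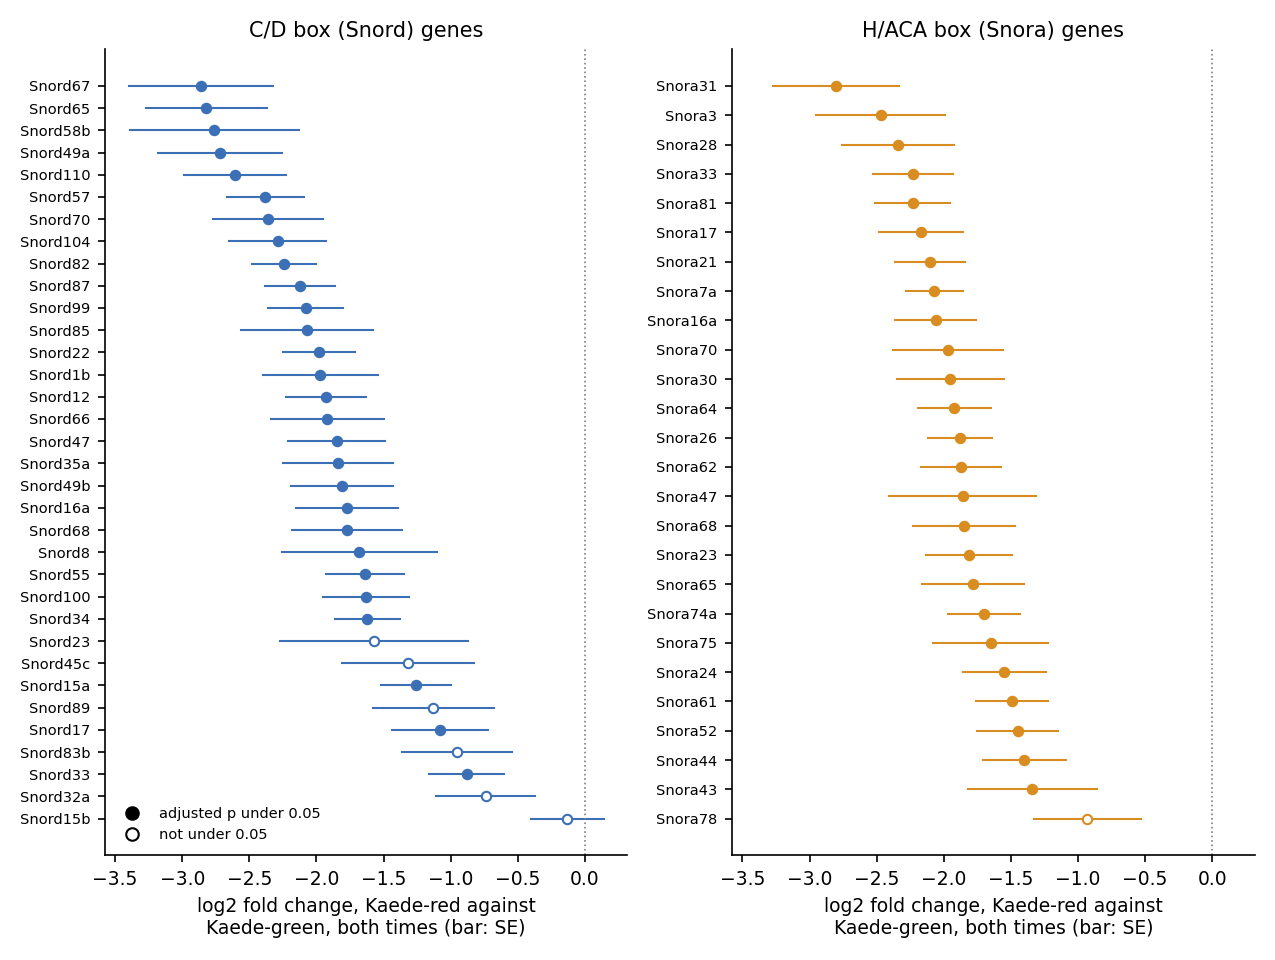
Kaede-red over Kaede-green log2 fold change of each tested Snord (left) and Snora (right) gene over both times, with TMM scaling, where bars are the standard error. Filled points had an adjusted p under 0.05. All points lie below 0, from -2.86 for Snord67 to -0.13 for Snord15b, and the open points are Snord15b, Snord32a, Snord83b, Snord89, Snord45c, Snord23 and Snora78. Scaling to library size alone moves the median of the 60 genes to 0.06.

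Among C/D box genes, Snord82, a guide for small-subunit ribosomal RNA, had 54.1, 28.3, 62.4 and 69.1 CPM in the Kaede-green and 10.3, 12.65, 14.3 and 19.97 CPM in the Kaede-red 24h libraries. At 72h it had 32.2, 33.6, 36.2 and 30.2 CPM in Kaede-green and 6.46, 4.71, 11.2 and 1.54 CPM in Kaede-red cells. All Kaede-red libraries were below all Kaede-green libraries, and its log2 fold change over both times was -2.24 (SE 0.24, adjusted p = 3.08e-08), a 4.73-fold lower level. Snord87, a large-subunit guide from the noncoding host Snhg6, had 37.9, 41.4, 27.5 and 52.3 CPM in Kaede-green and 8.17, 7.30, 15.4 and 14.7 CPM in Kaede-red 24h libraries. Its 72h values were 31.4, 16.8, 24.1 and 30.2 CPM against 5.05, 4.79, 9.68 and 1.03 CPM. Here too the colours did not overlap (log2 fold change -2.12, SE 0.26, adjusted p = 3.16e-07). At 24h alone, scaling to library size turned Snord82 to 0.36 and Snord87 to 0.32.

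Snord57 and Snord110, both small-subunit guides cut from Nop56, fell together. Snord57 had 61.3, 48.8, 22.4 and 19.6 CPM in Kaede-green and 5.45, 5.84, 10.5 and 11.3 CPM in Kaede-red 24h libraries, and at 72h 31.4, 20.5, 24.6 and 18.7 against 3.601, 3.76, 9.53 and 1.01 CPM. The fold change over both times (log2) was -2.38 (SE 0.29, adjusted p = 2.39e-07). Snord110 had group means of 16.3 ± 5.32 and 3.21 ± 1.49 CPM at 24h and 14.01 ± 5.06 and 2.35 ± 2.29 CPM at 72h (Kaede-green and Kaede-red, SD, n = 4), with a log2 fold change of -2.61 (SE 0.38, adjusted p = 3.93e-06). Neither gene showed overlap between the colours.

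The 6 largest falls over both times were those of Snord67 (-2.86), Snord65 (-2.82), Snora31 (-2.80), Snord58b (-2.76), Snord49a (-2.72) and Snord110 (-2.61). These are mostly genes with few counts. Snord65, a small-subunit guide, had 8, 9, 13 and 13 counts in the Kaede-green and 2, 2, 5 and 12 counts in the Kaede-red 24h libraries, and 5, 12, 13 and 7 against 6, 15, 9 and 9 counts at 72h. As CPM it was 4.19 ± 0.888 and 0.525 ± 0.370 at 24h and 2.62 ± 0.940 and 0.541 ± 0.553 at 72h (SD, n = 4), without overlap (SE 0.45, adjusted p = 1.79e-05). Snord67, which guides a methylation on the spliceosomal U6 RNA rather than on ribosomal RNA, had 120 counts in all, with 1.75 ± 1.35 and 0.610 ± 0.511 CPM at 24h and 3.72 ± 1.71 and 0.231 ± 0.157 CPM at 72h (SD, n = 4). Its colours overlapped at 24h but not at 72h (SE 0.54, adjusted p = 0.000184 over both times).

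Snord22, known for a part in processing of the small-subunit ribosomal RNA rather than in modification, had 53.0, 60.6, 44.1 and 25.8 CPM in Kaede-green and 17.7, 15.2, 22.3 and 21.6 CPM in Kaede-red 24h libraries. At 72h it had 103, 27.8, 50.4 and 204 CPM in Kaede-green and 9.32, 17.5, 24.9 and 8.70 CPM in Kaede-red cells. No Kaede-red value reached a Kaede-green value (log2 fold change -1.98, SE 0.27, adjusted p = 1.88e-06). Snord14a and Snord118, also known for a part in processing of ribosomal RNA, gave few or no counts. Snord14a, of the family that acts in cleavage of the small-subunit precursor, had 5 counts in all libraries, and Snord118, which acts in maturation of the large-subunit RNA, had none. The imprinted Snord116, Snord116l1 and Snord116l2, which belong to a brain-expressed cluster, had the same 18 counts each in the same libraries, so reads shared by these copies cannot be told apart.

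Snord17, the longest Snord gene and a large-subunit guide, depended on single libraries. It had 50.2, 49.2, 23.9 and 13.1 CPM in Kaede-green and 35.0, 24.8, 34.1 and 27.3 CPM in Kaede-red 24h libraries, which overlapped. Values at 72h were 21.6, 7.33, 30.9 and 199 CPM in Kaede-green and 9.12, 24.3, 17.1 and 14.2 CPM in Kaede-red cells, again with overlap. The log2 fold change over both times was -1.08 (SE 0.36, adjusted p = 0.0334), but -0.22 (adjusted p = 0.578) without Kaede-green 72h replicate 4 and 0.76 with scaling to library size alone. Leaving out any of 6 other libraries raised the adjusted p to between 0.051 and 0.0735, namely Kaede-green 24h replicate 1 or 2, Kaede-red 24h replicate 2 or 4 and Kaede-red 72h replicate 1 or 4.

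Of the H/ACA box genes, Snora81 is a large-subunit guide cut from the translation factor gene Eif4a2. It had 97.0, 95.0, 93.0 and 76.1 CPM in the Kaede-green and 26.2, 32.8, 56.8 and 39.5 CPM in the Kaede-red 24h libraries, and 72.0, 144, 91.2 and 478 against 19.7, 23.5, 33.1 and 8.82 CPM at 72h. All Kaede-red libraries were below all Kaede-green libraries (log2 fold change -2.23, SE 0.28, adjusted p = 4.45e-07). Snora7a, a large-subunit guide from Rpl32, had 28.4, 26.2, 32.9 and 42.9 CPM in Kaede-green and 11.9, 11.7, 20.9 and 16.5 CPM in Kaede-red 24h libraries. Its 72h values were 61.4, 49.8, 45.0 and 109 against 7.67, 11.0, 10.6 and 3.64 CPM, and the colours did not overlap (log2 fold change -2.07, SE 0.21, adjusted p = 1.16e-08).

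Snora23, cut from the importin gene Ipo7, had 33.2 ± 6.82 and 20.6 ± 5.504 CPM at 24h and 59.2 ± 75.8 and 7.74 ± 2.17 CPM at 72h (Kaede-green and Kaede-red, SD, n = 4), where 172 CPM in Kaede-green 72h replicate 4 set the spread. Its log2 fold change over both times was -1.81 (SE 0.32, adjusted p = 8.69e-05), or 0.03 with scaling to library size alone. Snora62, from the ribosomal protein gene Rpsa, had 16.1 ± 1.26 and 8.91 ± 2.81 CPM at 24h and 37.4 ± 40.0 and 5.29 ± 2.30 CPM at 72h (log2 fold change -1.87, SE 0.30, adjusted p = 1.79e-05), without overlap of the colours. Snora74a fell by 1.70 on the log2 scale (SE 0.27, adjusted p = 1.71e-05), and was at 0.21 with library size alone. The only tested Snora gene that did not pass was Snora78, from Snhg9, at -0.93 (SE 0.40, adjusted p = 0.100).

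By time, 17 snoRNA genes fell at 24h and 53 at 72h, where 4.28% and 8.76% of all tested genes fell. None rose at either time, against 3.22% and 8.06% of all genes. With scaling to library size alone 22 snoRNA genes rose at 24h, when 9054 of all 9642 genes were called with a median of 2.33. With the counts outside Rn45s as library size 5 fell and 1 rose, when 4548 of 8260 genes were called with a median of 0.92. Against those medians the snoRNA median at 24h was -1.35 and -1.25. At 24h the 17 comprised 12 Snord and 5 Snora genes, with medians of -1.36 and -1.11, and in 17 Snord and 14 Snora genes all Kaede-red libraries were below all Kaede-green ones, as in 5.43% of all genes. The largest falls among the 17 were those of Snord65 (-2.99, SE 0.64, adjusted p = 0.00253), Snord110 (-2.33), Snord57 (-2.17), Snord82 (-1.90), Snord87 (-1.80) and Snord47 (-1.79), all C/D box genes, while Snord58b (-2.28, adjusted p = 0.131) and the H/ACA box gene Snora31 (-2.02, adjusted p = 0.0874) did not pass. Snord47, a large-subunit guide from the noncoding host Gas5, turned to 0.41 at 24h with library size alone. Its adjusted p of 0.0271 at 24h rose to between 0.0599 and 0.141 without Kaede-green 24h replicate 1 or 2 or Kaede-red 24h replicate 1, 2 or 4. The count of 17 fell to 9 and 6 without Kaede-green 24h replicate 1 and 2, to 5, 5 and 8 without Kaede-red 24h replicate 1, 2 and 4, and to 11 without Kaede-red 72h replicate 2.

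At 72h the 53 comprised 28 Snord and 25 Snora genes, with medians of -2.34 and -2.84, and in 13 of each class the colours did not overlap, as in 9.52% of all genes. With scaling to library size alone 21 fell and none rose at 72h, when the median of all genes was 2.04. The largest falls were those of Snord67 (-4.23, SE 0.74, adjusted p = 0.000116), Snord49a (-3.68), Snora31 (-3.58), Snora3 (-3.44), Snord23 (-3.41) and Snora28 (-3.31). Snord23 rests on 76 counts in all libraries, and its adjusted p of 0.00479 at 72h was 0.0686 without Kaede-green 72h replicate 1. Without Kaede-green 72h replicate 4, 44 of 61 tested snoRNA genes fell, when 1610 of all 10114 genes were called. The Snora median was then -1.73 and the Snord median -2.34. With the Rn45s share as a covariate 17 Snora and 3 Snord genes fell at 72h and 1 Snora gene at 24h, when 101 and 206 of all 9642 genes were called. The medians in that fit were -2.93 for Snora and -1.35 for Snord genes at 72h, and -1.25 and -0.75 at 24h.

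The difference between the colours changed with time in 2 snoRNA genes, Snora7a and Snora26, where 0.332% of all tested genes changed in that direction and 0.425% in the other. For Snora7a the log2 fold change went from -1.11 at 24h (SE 0.30, adjusted p = 0.0157) to -3.04 at 72h (SE 0.30, adjusted p = 5.91e-08), a change of -1.93 (adjusted p = 0.0277). Its change was -1.57 (adjusted p = 0.0384) without Kaede-green 72h replicate 4, but the adjusted p rose to between 0.0533 and 0.0905 without Kaede-green 24h replicate 2 or 3, Kaede-red 24h replicate 3 or 4 or Kaede-red 72h replicate 1. Snora26 had 7.81, 10.7, 7.64 and 6.13 CPM in Kaede-green and 3.51, 3.28, 4.90 and 5.04 CPM in Kaede-red 24h libraries, and 15.7, 8.55, 7.78 and 21.6 against 1.45, 2.95, 1.81 and 1.28 CPM at 72h. Its change of -1.88 (adjusted p = 0.0495) had an adjusted p of 0.0983 without Kaede-green 72h replicate 4, and it passed only without Kaede-red 24h replicate 1, Kaede-green 72h replicate 3 or Kaede-red 72h replicate 2 when each of the 16 libraries was left out in turn. Over all tested snoRNA genes the medians of this change were -1.63 for Snora and -0.91 for Snord genes, or -0.72 and -0.67 without that library.

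Within Kaede-red cells, 7 snoRNA genes fell from 24h to 72h, where 3.76% of all genes fell, and none rose, against 4.92% of all genes. These were Snora23 (-1.39, SE 0.45, adjusted p = 0.0464), Snord82 (-1.38, SE 0.34, adjusted p = 0.0101), Snora33 (-1.31), Snord34 (-1.27), Snord87 (-1.27), Snora26 (-1.14) and Snora7a (-0.91). All 60 tested genes had values below 0, with medians of -0.75 for Snora and -0.83 for Snord genes, whereas with scaling to library size alone 48 were below 0 and none passed. The count of 7 was 0 without Kaede-red 24h replicate 4, 2 without Kaede-red 24h replicate 3, 1 without Kaede-red 72h replicate 1 or 4, and 15 without Kaede-red 72h replicate 3. Snord82, for one, was at -1.16 (adjusted p = 0.066) without Kaede-red 24h replicate 4. Within Kaede-green cells no snoRNA gene passed between the times, as no gene of the whole table did (0%, edgeR), while 11 snoRNA genes had an unadjusted p under 0.05, against 8.66% of all genes, and DESeq2 also called none of them. Scaling to library size alone called 9 snoRNA genes there, all higher at 72h, of 36 genes in all, and leaving out the filter called 7 of 37. The Snora median from 24h to 72h in Kaede-green cells was 0.84, or -0.08 without Kaede-green 72h replicate 4, and the Snord median 0.22, or -0.13.

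The host genes Rps3 and Rpl13a each hold more than 1 C/D box gene, and the members did not all fall alike. Rps3, a ribosomal protein gene, holds Snord15a and Snord15b, large-subunit guides that share 66.0% of aligned positions. Snord15a had 21.2, 18.03, 22.4 and 17.2 CPM in Kaede-green and 13.1, 8.76, 15.6 and 15.8 CPM in Kaede-red 24h libraries, and 27.4, 13.1, 14.1 and 72.0 against 3.95, 10.2, 11.3 and 7.77 CPM at 72h. Kaede-red values were lower at both times without overlap (log2 fold change -1.26 over both times, SE 0.26, adjusted p = 0.000472).

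Snord15b had 21.8, 19.2, 11.47 and 8.18 CPM in Kaede-green and 24.3, 18, 17.2 and 20.9 CPM in Kaede-red 24h libraries, and 8.77, 7.63, 24.8 and 59.8 against 10.2, 21.3, 14.4 and 16.7 CPM at 72h. The colours overlapped at both times, and the log2 fold change was -0.13 (SE 0.27, adjusted p = 0.784), or 0.32 without Kaede-green 72h replicate 4 and 1.84 with library size alone. The difference between Snord15a and Snord15b within a library differed by -1.25 between Kaede-red and Kaede-green cells on the log2 scale, from a mean of 0.47 in Kaede-green to -0.78 in Kaede-red libraries (exact permutation test within times, two-sided p = 0.00286, adjusted p = 0.0261 over 16 pairs of tested genes with a common host). It was -1.08 at 24h and -1.41 at 72h. Scaling enters such a difference only through the prior count of 2. Snord15b overlaps an annotated exon of Rps3, which Snord15a does not.

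**Figure D3:**
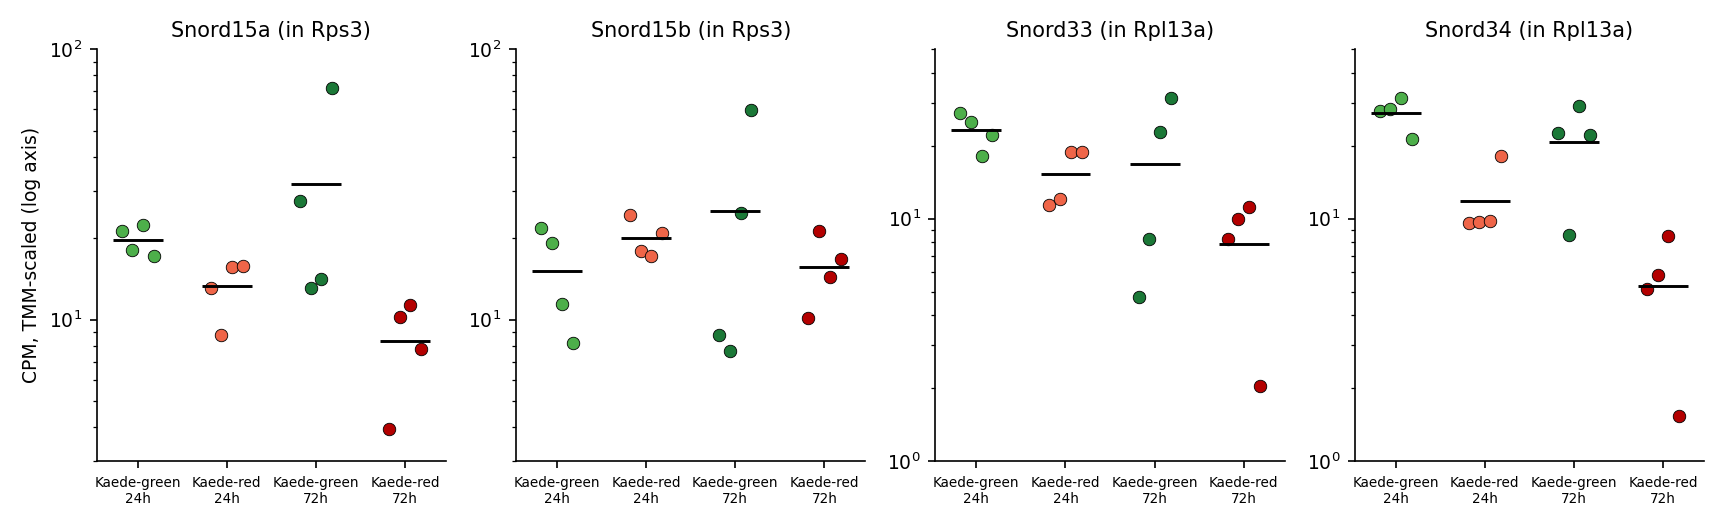
Level of Snord15a and Snord15b (both in Rps3) and of Snord33 and Snord34 (both in Rpl13a) in TMM-scaled CPM on log axes, 1 point per library with the mean of each group as a bar. Kaede-red points of Snord15a and Snord34 lie below the Kaede-green points of the same time, while those of Snord15b (17.2 to 24.3 CPM at 24h, beside 8.18 to 21.8 CPM in Kaede-green) overlap with them. Kaede-green 72h replicate 4 gives the highest point of Snord15a, Snord15b and Snord33.

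Rpl13a holds Snord32a, Snord33, Snord34 and Snord35a, a group of guides also known for roles in metabolic and oxidative stress. Snord34 had 27.9, 28.3, 31.3 and 21.3 CPM in Kaede-green and 9.57, 9.73, 9.80 and 18.2 CPM in Kaede-red 24h libraries, and 22.7, 8.55, 29.2 and 22.1 against 5.13, 5.88, 8.47 and 1.54 CPM at 72h. Its colours did not overlap within a time (log2 fold change -1.62, SE 0.24, adjusted p = 7.75e-06). Snord33 had 23.1 ± 3.98 and 15.3 ± 4.11 CPM at 24h and 16.8 ± 12.5 and 7.87 ± 4.07 CPM at 72h (SD, n = 4), and a log2 fold change of -0.88 (SE 0.28, adjusted p = 0.0230) with overlap at both times. Its adjusted p was 0.051 to 0.0994 without Kaede-red 24h replicate 1 or 2 or Kaede-green 72h replicate 3 or 4. Within a library, Snord33 minus Snord34 was 0.85 higher in Kaede-red cells (exact permutation test, two-sided p = 0.00327, adjusted p = 0.0261). Snord35a fell by 1.84 on the log2 scale (SE 0.41, adjusted p = 0.00127), and Snord32a had -0.74 (SE 0.37, adjusted p = 0.167). With scaling to library size alone these turned to 1.06 for Snord32a, 0.99 for Snord33, 0.34 for Snord34 and 0.31 for Snord35a. Of the 16 pairs with a common host, no other had an adjusted p under 0.05, the nearest being Snord32a minus Snord34 (1.03, exact p = 0.0163, adjusted p = 0.0871).

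Since snoRNAs are cut from host transcripts, each tested snoRNA gene was set beside its host where the host was tested too, which gave 52 pairs over 41 hosts. Of these hosts 20 fell, 2 rose (Chd8 and Snx5) and 19 did not pass, with a median log2 fold change over the 41 hosts of -0.56, on the TMM scale. Of all tested genes 10.3% fell and 10% rose over both times, with a median of 0.06. Scaling cancels in the ratio of snoRNA to host except through the prior count of 2. This ratio was below its Kaede-green value in Kaede-red cells in 47 of 52 pairs, with a median log2 difference of -1.13. It passed as lower in 19 pairs and as higher in 1 (two-sided exact permutation test within times, Benjamini-Hochberg over the 52 pairs). The median was -1.23 for the 24 snoRNA genes in introns of every transcript and -0.93 for the 28 that overlap an annotated exon. Among the 19 pairs with at least 10 counts of both genes in every library, 7 were lower and 1 higher.

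Both snoRNAs of Nop56 fell against a host that did not pass (log2 fold change -0.25, SE 0.20, adjusted p = 0.433), with ratio differences of -2.60 for Snord110 (p = 0.000816, adjusted p = 0.00472, exact permutation) and -2.28 for Snord57 (p = 0.000408, adjusted p = 0.00424, exact permutation), the latter being the smallest p the 4900 relabellings can give. Snord82 differed by -2.04 from Ncl (exact p = 0.000408, adjusted p = 0.00424), Snora64 by -2.02 from Rps2 (exact p = 0.000408, adjusted p = 0.00424) and Snord65 by -1.83 from 2410006H16Rik (exact p = 0.000408, adjusted p = 0.00424), and in these 3 pairs the colours did not overlap. Snora81 differed by -1.49 from Eif4a2 (exact p = 0.000816, adjusted p = 0.00472). The 1 pair with a higher ratio was Snord15b with Rps3 (1.29, exact p = 0.00653, adjusted p = 0.0226), whose host fell by 1.17 on the log2 scale (SE 0.16) on the TMM scale.

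Several pairs had ratio differences near 0, among them Snora65 with Rpl12 (0.00), Snord15a with Rps3 (0.04), Snord34 with Rpl13a (-0.14), Snora24 with Snhg8 (-0.02) and Snora26 with Dancr (-0.02), none of which passed. The last of these is not an independent comparison. Snora26 and Dancr had the same count in 9 of 16 libraries and 670 against 694 counts in all, so the reads of the snoRNA gene and of its host cannot be told apart there, and what is said of Snora26 holds as well for Dancr. Snora24 had 926 counts against 1224 of Snhg8, whose exon it overlaps. Gas5, with a log2 fold change of -2.33 (SE 0.24) on the TMM scale, fell by more than its member Snord47 at -1.85, but their ratio did not pass (0.73, exact permutation p = 0.113, adjusted p = 0.164).

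**Figure D4:**
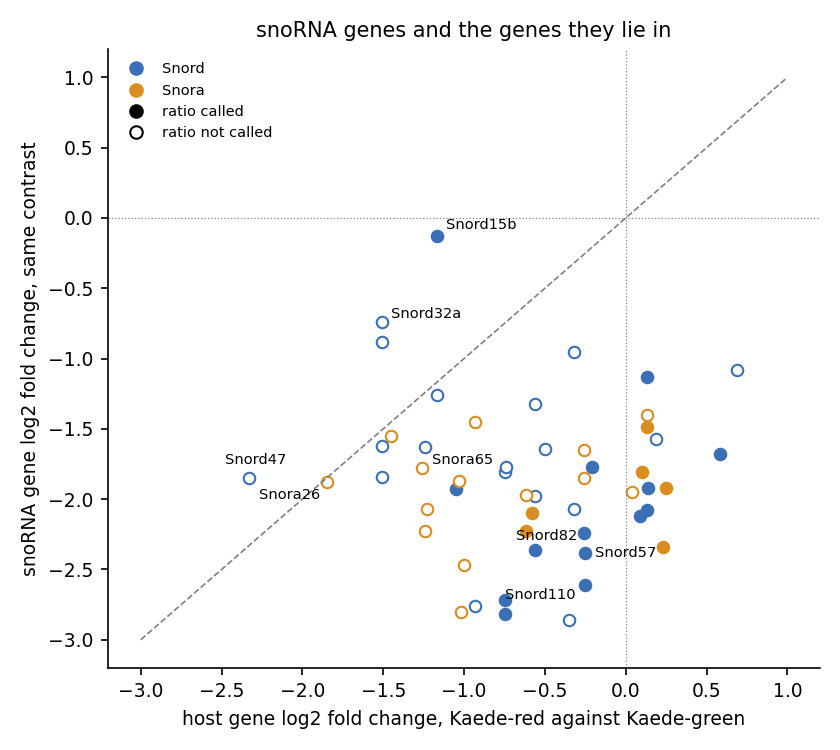
Kaede-red over Kaede-green log2 fold change over both times, TMM-scaled, of 52 snoRNA genes (vertical axis) and of the gene each lies in (horizontal axis), with the dashed line where the 2 are equal. Filled points had a snoRNA to host ratio with an adjusted p under 0.05 in the exact permutation test. Most points lie below the line, in 47 of 52 pairs by the ratio, and Snord15b is the filled point above it.

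With all libraries and TMM scaling, none of the genes examined for proteins of the snoRNA particles passed between the colours over both times. Of the C/D box proteins Fbl (fibrillarin), Nop56, Nop58, Nhp2l1 and Rrp9, none of 5 passed over both times, with a median of -0.25 and values from -0.56 for Nop58 (SE 0.22, adjusted p = 0.0679) to 0.27 for Rrp9 (SE 0.30), and 0.00 for Fbl (SE 0.23). Nop58 did fall without Kaede-green 72h replicate 4 (-0.62), Kaede-green 24h replicate 1 or 2 (-0.68 in both) or Kaede-red 24h replicate 4 (-0.64), with adjusted p between 0.0199 and 0.0463, and with Rn45s left out (-0.59). None of the 4 H/ACA box proteins passed either, with a median of -0.28 and -0.25 for Dkc1 (dyskerin, SE 0.34). None of 10 tested assembly factors passed over both times (median 0.24) and 1 fell at 72h. Without Kaede-green 24h replicate 1, Nolc1 fell (-0.64, adjusted p = 0.0359) and Ruvbl1 rose (0.88, adjusted p = 0.023). With scaling to library size alone all tested members of these 3 lists rose, in step with the upward shift of the median gene given above.

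Other short noncoding RNAs were lower on the same scale, although with library size alone the medians turned to 0.40 for the Cajal body RNAs and -0.04 for the other small structured RNAs. All 7 tested Cajal body RNAs, which guide modification of spliceosomal RNAs with the same box elements, fell in Kaede-red cells with a median of -1.48, from -2.59 (Scarna8, SE 0.34, adjusted p = 9.94e-07) to -1.34 (Scarna2, SE 0.23, adjusted p = 5.91e-05). All 8 other tested small structured RNAs also fell, with a median of -1.83. Among these were the RNA of RNase MRP, Rmrp (-1.74, SE 0.33, adjusted p = 0.000193), that of RNase P, Rpph1 (-1.34, SE 0.32, adjusted p = 0.00260), the telomerase RNA Terc, itself an H/ACA RNA (-1.84, SE 0.45, adjusted p = 0.00346), and the minor spliceosomal RNAs Rnu11 (-1.75) and Rnu12 (-2.09). Of the nuclear long noncoding RNAs, 2 of 4 tested fell, Malat1 (-0.80, SE 0.22, adjusted p = 0.00809) and Neat1 (-1.33, SE 0.17, adjusted p = 4.68e-07), but all 4 rose with library size alone. Without Kaede-green 72h replicate 4, 7 of 8 tested Cajal body RNAs (median -1.24), all 8 other small structured RNAs (median -1.48) and 3 of 4 long noncoding RNAs fell. In that fit 1976 of all 10114 genes were called. With the Rn45s share as a covariate, 2 of 7, 6 of 8 and 0 of 4 fell, when 156 of all 9642 genes were called.

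Kaede-green 72h replicate 4 was above the other 3 libraries of its group in all 26 tested Snora genes, by a median of 4.29 times their mean, but in 11 of 34 Snord genes, by a median of 1.25 times, and in 2369 of the 9642 tested genes, by a median of 0.990 times. The 4 tested Snord genes of 120 bases or more (Snord17, Snord15a, Snord15b and Snord22) were 4.16 times the others there in the median and the 30 shorter ones 1.20 times. Across the 58 tested snoRNA genes with a length, length and the log2 of this ratio had a Pearson r of 0.78 and a Spearman rho of 0.80, a description across genes that share 1 library. Rmrp and Rpph1 had 6686 and 10340 CPM in that library, against at most 1489 and 3352 CPM in the other 3 of the group. Length also went with the difference between the colours within the Snord genes, where r with the log2 fold change over both times was 0.51 (34 genes, rho 0.52), with medians of -1.17 for those of 120 bases or more and -1.89 for the shorter. Among the 24 Snora genes with a length, r was -0.01.

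**Figure D5:**
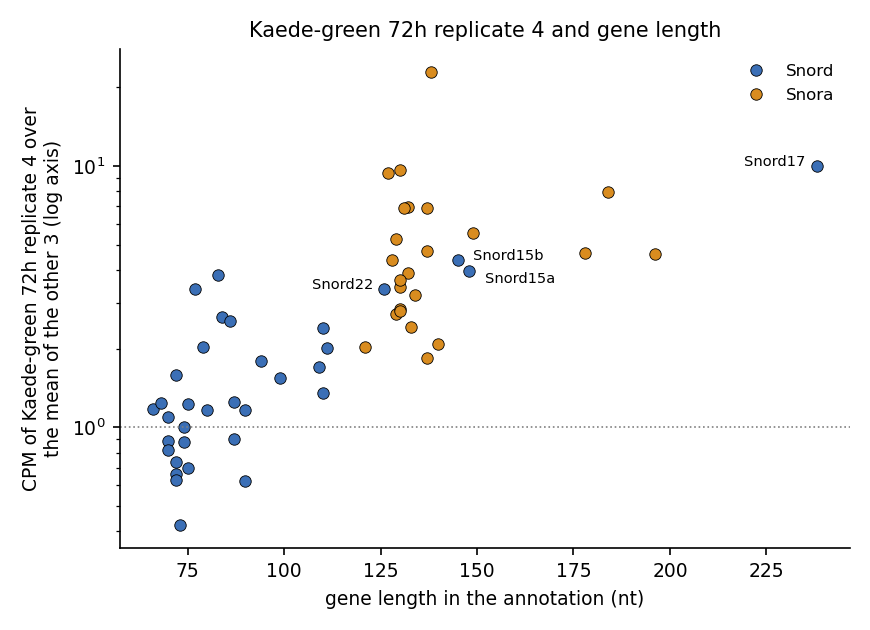
CPM in Kaede-green 72h replicate 4 divided by the mean of the other 3 Kaede-green 72h libraries (log axis) against gene length in bases for 58 tested snoRNA genes, where each point is 1 gene and the dotted line marks equal levels. Snora genes and the 4 long Snord genes lie above the line, with Snord17 at 9.97 times, while the shorter Snord genes scatter about it.

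Reads were 150 bases from both ends of a fragment, longer than most C/D box RNAs, and a count may come from a mature snoRNA or from an unspliced or retained host transcript. The counts do not separate these, so each value here is the level of reads over the snoRNA gene.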

How the data were processed

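Total RNA was sequenced from 16 libraries with a stranded pico-input kit (5 ng of RNA, 150-base paired reads). Per the submitters' processing notes and methods, reads were trimmed with Trim Galore, checked with FastQC, aligned to mm10 with HISAT2 and assigned to genes with featureCounts. The authors deposited whole, unnormalised counts per gene and library, which were used as deposited. A joint table of the same counts was not used.

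The counts of all 24421 genes were fitted in 1 edgeR model (version 4.0.16, R 4.3.3) with a mean per group, filterByExpr and TMM factors, leaving 9642 tested genes. Standard errors were the log2 fold change over the root of F, and the adjusted p (Benjamini-Hochberg, all tested genes) was called under 0.05. CPM used TMM-scaled library sizes, with a prior count of 2 for log2 values. Hosts, lengths and sequences came from GENCODE (release M21), a host being a gene on the same strand that spans the member, with RefSeq synonyms for older symbols. The fit was tested on simulated data. No pair of libraries in a group agreed within sampling noise. Alternatives were DESeq2 1.42.0, other scalings, filters and covariates, the replicate block and leaving out each library. Among these, counts outside Rn45s as library size and pairs of members with a common host, were chosen after the data were seen. Members, gene lists and the rule for named genes (the 6 largest falls and rises called per comparison, the 5 genes of each class with the highest mean CPM, and members with a known role) were chosen with earlier results of these data known. The depth is 468092 to 5472477 counts outside Rn45s per library, and the common dispersion was 0.0702.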

Additional observations from a re-analysis of the deposited data

Results flagged for a closer look

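In groups of 4 libraries, the highest or lowest library was compared with its nearest neighbour over the range of the group for the summed classes, their ratio and the 5 genes of each class with the highest mean CPM. Of 52 such groups, 5 held a library that stood apart, and chance gives about 1 in 20. Kaede-green 72h replicate 4 accounted for 4 of them, with 1638 CPM of summed Snora genes, 172 CPM of Snora23, 97.0 CPM of Snora62 and 199 CPM of Snord17, each the highest of its group. The fifth was Kaede-green 24h replicate 4, with 0.763 Snora counts per Snord count, in a group whose other 3 values were 0.741 to 0.743. The difference between the colours was more negative at 72h than at 24h in Snora7a (change of -1.93, edgeR adjusted p = 0.0277) and Snora26 (change of -1.88, edgeR adjusted p = 0.0495), the latter with counts nearly equal to those of its host Dancr.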

How the results depend on the processing

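The counts of snoRNA genes called over both times, at 24h, at 72h, within Kaede-red cells, within Kaede-green cells and for the change with time were 53, 17, 53, 7, 0 and 2. Scaling to library size alone gave 7 and 22 genes called higher for the first 2, and 21, 0, 9 and 0 for the others, but it moved the median of all genes by 2.20 and 2.33, against which the snoRNA medians stayed at -2.14 and -1.35. On that scale the summed levels were 0.48 (Snord) and 0.31 (Snora), and named genes above 0 were Snord82 (0.36), Snord87 (0.32) and Snord47 (0.41) at 24h and Snord17 (0.76), Snord15b (1.84), Snora23 (0.03), Snora74a (0.21), Snord32a (1.06), Snord33 (0.99), Snord34 (0.34) and Snord35a (0.31) over both times. The counts outside Rn45s as library size gave 46, 6, 47, 7, 0 and 6 calls, summed levels of -0.87 and -1.03 against -1.63 and -1.80, and turned Snord15b (0.64) and Snord32a (0.01). Of all 8260 genes in that fit 5680, 4548, 3564, 590, 0 and 117 were called. Without the filter, which let in 46 further snoRNA genes of low count, the calls were 67, 29, 69, 15, 7 and 16. Of all 21040 genes 2154, 705, 2014, 827, 37 and 216 were called there. With at least 10 counts in every library, which left fewer genes, the calls were 27, 5, 28, 8, 0 and 4. Of all 3084 genes 1351, 583, 1295, 956, 0 and 156 were called there. DESeq2 called 52, 14, 48, 6, 0 and 5 snoRNA genes and 2308, 939, 1997, 1263, 13 and 321 of all 9642 genes. With the Rn45s share as a covariate the snoRNA calls were 17, 1, 20, 0, 0 and 1, when 156, 206, 101, 110, 0 and 34 of all 9642 genes were called. A fit of the compared groups alone gave 14 within Kaede-red cells, when 1604 of all 10080 genes were called. The replicate block gave 50, 16, 51, 6, 0 and 1 calls, when 1852, 692, 1573, 877, 0 and 78 of all 9642 genes were called. Same-numbered libraries of different groups correlated by -0.041 to 0.153 in their deviations from the group means. Correlations this weak cannot settle whether the numbers pair the libraries. Leaving out each library gave 49 to 59, 5 to 19, 44 to 58, 0 to 15, 0 to 0 and 0 to 5 calls, summed levels of -1.82 to -1.48 and -1.93 to -1.52, and 14 to 30 snoRNA to host ratios called against 20. Of all genes, 9534 to 10172 tested, 1582 to 2082, 503 to 765, 1146 to 1910, 280 to 1108, 0 to 2 and 2 to 155 were called. Snord15b ranged from -0.29 to 0.32, the latter without Kaede-green 72h replicate 4. With at least 10 counts of both genes 8 of 19 ratios were called. The cause of these changes was not tested, apart from the fewer genes or libraries that an alternative leaves.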
